A study of Mus musculus with 24 samples.

Results

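The protein-coding mRNAs of the small ribosomal subunit were examined in mouse neuroblastoma N2a cells in which mTOR was inhibited with Torin1, with or without a knockout (KO) of the cap-binding protein eIF4E3. The 29 members, matched by gene symbol, were Rpsa, Rps2, Rps3, Rps3a1, Rps4x, Rps6, Rps7, Rps9, Rps10, Rps12, Rps13, Rps14, Rps15, Rps15a, Rps16, Rps18, Rps19, Rps20, Rps21, Rps23, Rps24, Rps25, Rps26, Rps27, Rps27a, Rps27l, Rps28, Rps29 and Fau. Each was represented by 1 canonical transcript among the 12759 transcripts listed in any of the tables of counts, and all 29 were among the 10506 listed in every table. No member was lost to the filter on low counts in any comparison.

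The ctrl cells had been transfected with empty vector, and the KO cells with 3 gRNAs against Eif4e3 for CRISPR-Cas9. Transfected cells were selected with puromycin over repeated rounds, and the study's methods give no cloning step. Both were given DMSO (the solvent) or 250 nM Torin1 for 2 h, and each condition was sampled at different passages, by RNA-seq for mRNA level and by ribo-seq for ribosome footprints on the CDS. The values come from 12 libraries of RNA-seq and 11 of ribo-seq, with 3 per condition, except that ribo-seq of ctrl cells in DMSO had replicates 1 and 3 only. Replicate 2 was not analysed here, and the study names a library of that condition as an outlier that was set aside.

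The small subunit carries the mRNA and the decoding centre of the ribosome, and its proteins surround the 18S rRNA in a head, a body, a platform and a foot. The mRNAs of nearly all ribosomal proteins and of the translation elongation factors belong to the 5′ TOP class, whose transcripts start with a cytidine next to the cap followed by an uninterrupted stretch of pyrimidines. When mTOR complex 1 is inhibited, LARP1 binds the cap and the stretch behind it, the 4E-BPs sequester eIF4E1, and the mRNAs of this class leave polysomes while remaining largely stable. Torin1 blocks the active site of mTOR and so inhibits both of its complexes.

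RNA-seq libraries held 17047795 to 28910907 counts and ribo-seq libraries 669010 to 5284909, the lowest being replicate 3 of ctrl cells in DMSO. A member had 29 to 12371 counts in a ribo-seq library and 1350 to 66582 in an RNA-seq library, so that counting error weighed most on the footprints of Rps27. Eif4e3, the targeted gene, was at 11.1 to 18.1 CPM (counts scaled to the size of the library) in the RNA-seq libraries of ctrl cells and at 2.84 to 5.11 in those of KO cells. Its footprints were at 12.4 to 22.5 CPM in ctrl and at 2.48 to 7.04 CPM in KO cells, so some footprints remained in the KO cells. By western blot the study could not detect eIF4E3 protein in the KO cells, and the counts do not measure protein. Of the neuroblastoma markers, 12 of 12 were listed, with a summed RNA-seq level of 4400 to 5500 CPM. Of the fibroblast markers 1 of 4 was listed, at 0.0821 to 0.446 CPM, and of the leukocyte markers 1 of 3, at 1.33 to 4.07 CPM. All levels below are CPM after TMM scaling (trimmed mean of M-values, which sets the bulk of transcripts equal between libraries). A level is therefore relative to the other transcripts of the same library, a fall of total translation does not show in it, and fewer expressing cells cannot be told apart from less RNA per cell.

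The start regions of the members are shown first because the 5′ TOP is read at the first bases of the mRNA. RefSeq gave a transcription start for 25 of the 29 members on GRCm38.p6, the build of the authors' alignments (mm10). Each line below has 30 bases, 5′ to 3′ on the strand of the gene, and starts 5 bases before the longest run of pyrimidines that opens with a C within 20 bases of that start, with the run in capitals. Relative to the RefSeq start, the runs of Rps15 and Rps28 began at -19 and that of Rps27l at -12. These ended upstream of the start and lie outside the annotated mRNA. The other runs shown began between -3 (Rps10 and Fau) and 8 (Rps12), that of Rps27 at -2. The 4 shown first belong to the members with a start entry whose ratio of footprints to mRNA decreased most with Torin1 in ctrl cells. The next 3 had smaller decreases, although Rps13 and Rps25, which are not shown, decreased less than Rps28 in ctrl cells. Rps6 encodes the substrate of the S6 kinases, Fau a ubiquitin-like fusion, and Rps27 and Rps27l are paralogs with different responses.
Rps2, chr17:24720062-24720091, plus strand: tcgcgCTTCTTggagcactataaattgtcc
Rps12, chr10:23787177-23787206, minus strand: gccggCCTTTTCCCCTgccgccgccgactt
Rps23, chr13:90923120-90923149, plus strand: cggggCTTCCCgcaatgccttgtgggtcct
Rps18, chr17:33955643-33955672, minus strand: ttccgCTCTCTCTTCCacaggaggcctaca
Rps10, chr17:27635223-27635252, minus strand: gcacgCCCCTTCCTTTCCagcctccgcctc
Rps15, chr10:80292407-80292436, plus strand: gcgggCCCTCCCggcagagctcgcgataac
Rps28, chr17:33824557-33824586, minus strand: ggattCCTgggtaccgcgtgcggtctcgcg
Rps6, chr4:86857344-86857373, minus strand: tcgggCCTCTTTTTCgtgacgcctcccagg
Fau, chr19:6057939-6057968, plus strand: ccccaCTTCTTCCTCTTTCTTgactccatc
Rps27, chr3:90213626-90213655, minus strand: tttcgCTCCTTTCCggcggtgacgacctcc
Rps27l, chr9:66946069-66946098, plus strand: ctccaCTCCTCCCCgccgcctctatcccgg

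A run of at least 6 pyrimidines from a C was found near the RefSeq start of 18 of 25 members (72.0%), against 3707 of 10026 genes in the tables (37.0%). The annotated first base of the listed transcript itself was a C followed by at least 4 pyrimidines in 2 of 29 members (6.90%), against 297 of 12703 transcripts (2.34%). These positions are those of the annotation, and the first bases of the transcripts made in N2a cells were not measured. The run of Fau was the longest of those shown with 16 bases, while Rps28 had 3 and Rps2, the member with the largest decrease, had 6. The members were short mRNAs, with a median CDS of 438 nt against 1359 nt for all listed transcripts and a median 5′ TL of 107 nt against 171 nt.

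To place the members within the whole library, the share of counts that fell on them was taken first. In ribo-seq of ctrl cells, the 29 mRNAs held a mean of 2.91% of all footprints in DMSO and 0.856% in Torin1. In KO cells the means were 2.68% and 0.759%. No library in Torin1 (0.721 to 0.946%) reached the lowest in DMSO (2.61 to 3.16%). The exact two-sided permutation test gave p = 0.2 in ctrl and p = 0.1 in KO cells, the smallest values that 2 against 3 and 3 against 3 libraries allow. In RNA-seq the share went from 2.73% to 2.36% in ctrl cells (exact permutation p = 0.3) and from 2.37% to 2.30% in KO cells (exact permutation p = 0.5). The RNA-seq libraries of all conditions lay between 2.24 and 3.07% and overlapped.

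**Figure D1:**
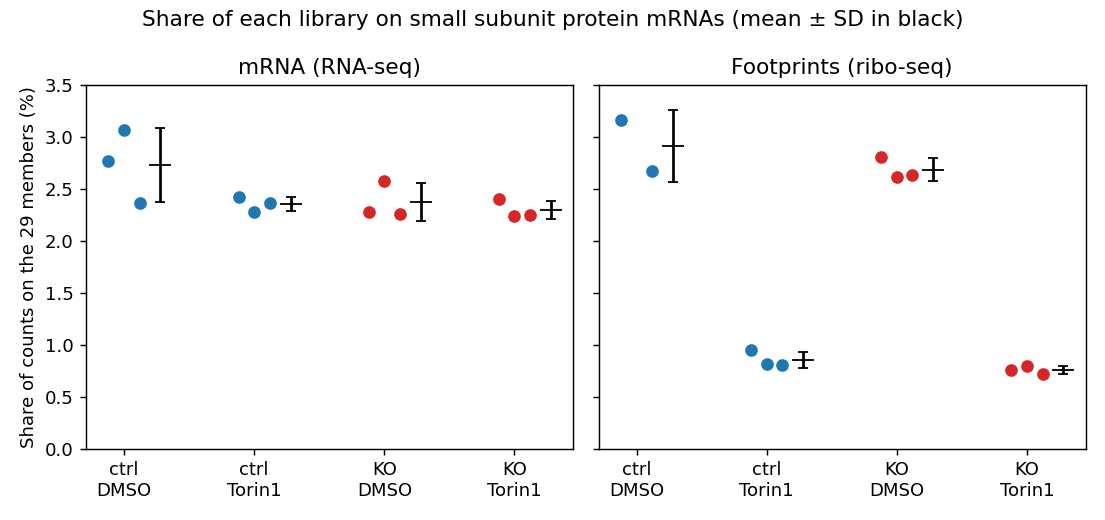
Share of the counts of each library (%) on the 29 small subunit protein mRNAs, for RNA-seq and ribo-seq, in ctrl and KO cells with DMSO or Torin1. Points are libraries, black marks the mean ± SD. Ribo-seq shares lay at 2.61 to 3.16% in DMSO and at 0.721 to 0.946% in Torin1, while RNA-seq shares overlapped between conditions.

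Which members lost footprints in Torin1 was tested by edgeR's quasi-likelihood F-test over all transcripts, where a call is a Benjamini-Hochberg adjusted p under 0.05. In ctrl cells, 28 of 29 members decreased and none increased, where 9.93% of all 10693 transcripts tested decreased. The median of the members was a log2 fold change of -1.87, or 3.66-fold lower, against 0.02 for all transcripts. In KO cells, 28 of 29 decreased (22.1% of 10822 transcripts), with a median of -2.01, or 4.02-fold lower. Rps27l, a paralog of Rps27 that p53 induces, was the single member that was not called in either genotype. The libraries of the other 28 did not overlap between DMSO and Torin1 in ctrl or in KO cells, a pattern that 21.8% and 25.1% of all transcripts showed towards lower levels.

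Translation efficiency (TE), the level of footprints relative to the level of mRNA, was tested as the interaction of assay with treatment in one edgeR model of both kinds of library. In ctrl cells the TE of 28 of 29 members decreased, where 4.29% of 10432 transcripts decreased, and the median of the members was -1.59 on the log2 scale (3.02-fold lower). In KO cells the TE of 28 decreased, where 17.8% of 10535 transcripts decreased, with a median of -1.93 (3.82-fold lower). The standard errors (SE) of the members were 0.18 to 0.26 in ctrl and 0.12 to 0.22 in KO cells. Ranked from the lowest TE change among all transcripts, the 28 stood within the lowest 500 in both genotypes, and 11 of them in ctrl and 7 in KO cells within the lowest 100. Rps2 was in place 13 of 10432 in ctrl cells and Rps27l in place 8000.

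**Figure D2:**
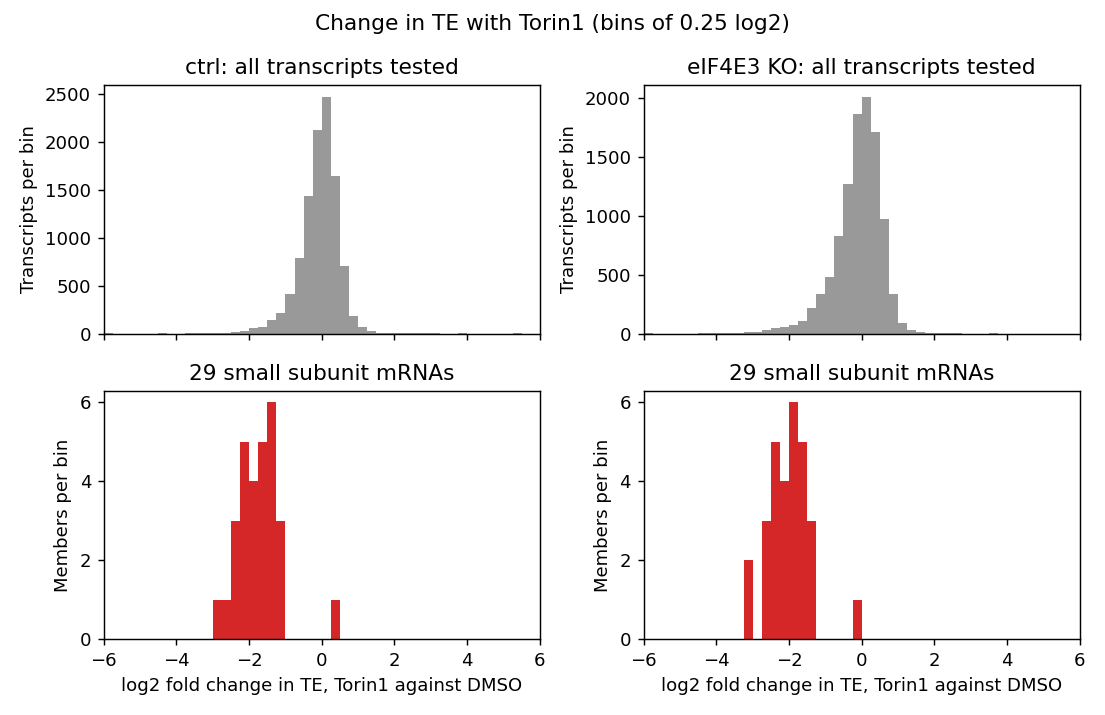
Histograms of the log2 change in TE with Torin1 against DMSO for all transcripts tested and for the 29 members, in ctrl and KO cells. The members stood in the lower tail around medians of -1.59 (ctrl) and -1.93 (KO), except for Rps27l at 0.27 and -0.03.

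The decreases differed among members. Rps2, a protein of the body at the path by which mRNA enters the ribosome, had the largest change in ctrl cells. Its footprints were at 2146 and 1579 CPM in replicates 1 and 3 of ctrl DMSO and at 242, 236 and 253 CPM in ctrl Torin1. In KO cells they were at 1589, 1775 and 2295 CPM in DMSO and at 223, 208 and 202 CPM in Torin1. All Torin1 libraries of both genotypes lay far below all DMSO libraries. Its mRNA was at 274, 283 and 302 CPM in ctrl DMSO and at 255, 275 and 257 CPM in ctrl Torin1, values that overlapped. The log2 change in TE was -2.82 (SE 0.18, edgeR adjusted p = 3.74e-09) in ctrl and -3.05 (SE 0.18, edgeR adjusted p = 1.13e-12) in KO cells.

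Rps12, a protein of the head, came next to Rps2 in ctrl cells and was first in KO cells. Its footprints were at 955 and 696 CPM in ctrl DMSO and at 123, 124 and 130 CPM in ctrl Torin1. In KO cells they were at 891, 746 and 606 CPM in DMSO and at 93.9, 104 and 78.9 CPM in Torin1. The lowest DMSO library stood above every Torin1 library. The TE change was -2.54 (SE 0.20, edgeR adjusted p = 7.44e-08) in ctrl and -3.07 (SE 0.17, edgeR adjusted p = 4.01e-13) in KO cells, while its mRNA lay between 667 and 914 CPM in the 12 RNA-seq libraries.

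Rps23, which lines the decoding centre, was among the 3 largest decreases in ctrl cells. Its footprints were at 982 and 1017 CPM in ctrl DMSO against 164, 165 and 159 CPM in ctrl Torin1, and at 843, 724 and 626 CPM in KO DMSO against 126, 128 and 131 CPM in KO Torin1. In both genotypes the Torin1 libraries differed little from each other and lay below every DMSO library. Rps20, another protein of the head, took that place in KO cells, with 583 and 547 CPM in ctrl DMSO against 111, 103 and 84.6 CPM in ctrl Torin1, and 589.9, 555 and 589 CPM in KO DMSO against 77.6, 103 and 80.6 CPM in KO Torin1. The TE changes were -2.34 (SE 0.18) and -2.44 (SE 0.15) for Rps23 and -2.30 (SE 0.21) and -2.75 (SE 0.15) for Rps20, in ctrl and KO cells in that order.

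At the other end of the 28, the decreases were still beyond the threshold but smaller. Rps15, a head protein close to the decoding centre, had 824 and 473 CPM of footprints in ctrl DMSO and 255, 233 and 217 CPM in ctrl Torin1. Its replicates in DMSO differed more from each other than those in Torin1, without overlap between the treatments. The TE change was -1.11 (SE 0.25, edgeR adjusted p = 0.0083) in ctrl and -1.68 (SE 0.14, edgeR adjusted p = 4.59e-10) in KO cells, where footprints were at 623, 539 and 565 CPM in DMSO and at 176, 166 and 158 CPM in Torin1.

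Rps14, a platform protein next to the mRNA exit, had 882 and 1023 CPM in ctrl DMSO and 436, 286 and 312 CPM in ctrl Torin1, with a TE change of -1.20 (SE 0.24). In KO cells it had 889, 775 and 674 CPM in DMSO and 265, 284 and 228 CPM in Torin1, with a TE change of -1.46 (SE 0.15). Each genotype kept a gap between the treatments. Rps29, a small zinc-binding protein of the head, had 809 and 562 CPM in ctrl DMSO and 301, 256 and 229 CPM in ctrl Torin1, and 709.6, 594 and 693 CPM in KO DMSO against 237, 262 and 243 CPM in KO Torin1. Rps10, a head protein ubiquitylated on stalled ribosomes, had 808 and 562 CPM in ctrl DMSO and 266, 215 and 189 CPM in ctrl Torin1, and 644, 643 and 696 CPM in KO DMSO against 258, 243 and 197 CPM in KO Torin1. For both, the Torin1 libraries of each genotype were all lower than the DMSO libraries, and the TE changes in ctrl and KO cells were -1.21 (SE 0.22) and -1.35 (SE 0.13) for Rps29 and -1.33 (SE 0.23) and -1.43 (SE 0.15) for Rps10.

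The members between these ends had TE changes of -2.33 (Rps18) to -1.26 (Rps25) in ctrl cells. Rps9 and Rps3, which flank the path of the entering mRNA with Rps2, were at -2.18 (SE 0.18) and -1.59 (SE 0.20) in ctrl cells, both smaller than Rps2. Rps26 and Rps28, near the exit of the mRNA, were at -1.46 (SE 0.25) and -1.50 (SE 0.19). Rps19 and Rps24, which are mutated in Diamond-Blackfan anaemia, were at -1.82 (SE 0.20) and -1.78 (SE 0.23), and Rpsa, which is also known as a laminin receptor precursor, at -1.51 (SE 0.19). The sizes thus varied among the proteins at the path of the entering mRNA, while those of Rps26 and Rps28 were close to each other. In KO cells Rps18, Rps21 and Rps7 had decreases among the larger ones (-2.67, -2.64 and -2.39), and Rps25 and Rps13 among the smaller (-1.55 and -1.68).

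**Figure D3:**
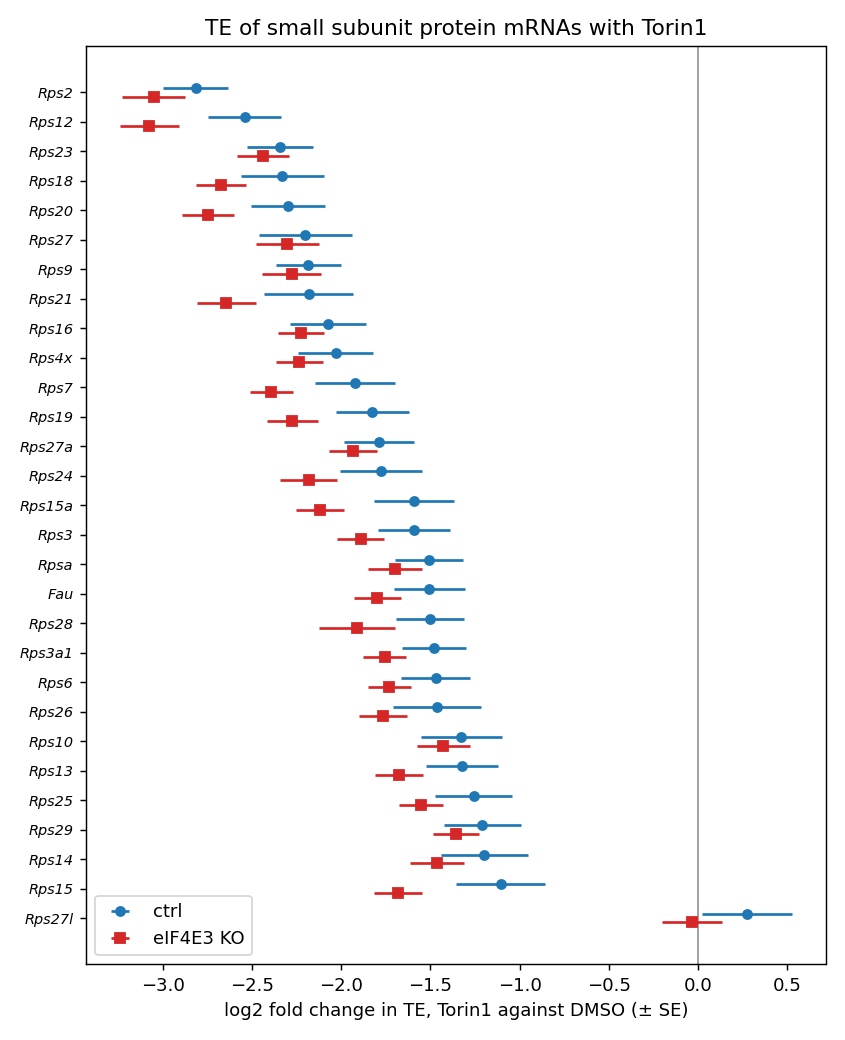
Log2 change in TE with Torin1 for each of the 29 members in ctrl and KO cells, ordered by the change in ctrl cells. Points are edgeR estimates and bars their SE. The members ran from -2.82 (Rps2) to -1.11 (Rps15) in ctrl cells, with Rps27l apart at 0.27.

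Rps6, the substrate that the S6 kinases phosphorylate downstream of mTOR, was among the members with smaller decreases. Its footprints were at 1304 and 1192 CPM in ctrl DMSO against 399, 354 and 372 CPM in ctrl Torin1, and at 1194, 1242 and 1101 CPM in KO DMSO against 342, 338 and 341 CPM in KO Torin1. Treatments did not overlap, and the KO libraries in Torin1 were below those of ctrl cells by a difference that did not pass the threshold (log2 difference -0.14, SE 0.10, edgeR adjusted p = 0.458). The TE changes with Torin1 were -1.47 (SE 0.19) in ctrl and -1.73 (SE 0.12) in KO cells.

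Rps27a is translated as a fusion with ubiquitin and Fau as a fusion of the ubiquitin-like FUBI with Rps30, and both are cleaved afterwards. Rps27a had 2919 and 2966 CPM of footprints in ctrl DMSO and 746, 633 and 733 CPM in ctrl Torin1, and 2648, 2588 and 2119 CPM in KO DMSO against 613, 647 and 596 CPM in KO Torin1. Fau had 925 and 899 CPM in ctrl DMSO and 299.5, 231 and 236 CPM in ctrl Torin1, and 748, 687 and 623 CPM in KO DMSO against 187, 194 and 179.5 CPM in KO Torin1. Both were lower in every Torin1 library than in any DMSO library of the same genotype. The TE changes in ctrl and KO cells were -1.79 (SE 0.20) and -1.93 (SE 0.14) for Rps27a and -1.51 (SE 0.20) and -1.80 (SE 0.13) for Fau, so the fusions moved with the other members.

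Rps27l stood apart. Its footprints were at 292 and 188 CPM in ctrl DMSO and at 254, 213 and 199.8 CPM in ctrl Torin1, and at 251, 232 and 243 CPM in KO DMSO against 246, 202 and 152 CPM in KO Torin1. The treatments overlapped in both genotypes. Its mRNA was at 124, 133 and 85.7 CPM in ctrl DMSO and at 90.7, 83.5 and 79.3 CPM in ctrl Torin1, and at 96.4, 108 and 97.4 CPM in KO DMSO against 95.3, 77.2 and 79.9 CPM in KO Torin1. The Torin1 libraries were the lower ones in KO cells, whereas 1 ctrl library in DMSO lay within the range of Torin1. The change in TE was 0.27 (SE 0.25, edgeR adjusted p = 0.653) in ctrl and -0.03 (SE 0.17, edgeR adjusted p = 0.911) in KO cells, and its sign in KO cells turned when library-size scaling replaced TMM (0.21). With the passage as a block its footprints in KO cells passed the threshold (-0.31, SE 0.10, edgeR adjusted p = 0.0117), a decrease smaller than that of any other member.

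Rps27 itself, which Rps27l replaces in a part of the ribosomes, had 167 and 159 CPM of footprints in ctrl DMSO and 21, 36.5 and 29.5 CPM in ctrl Torin1. In KO cells it had 125, 143 and 152 CPM in DMSO and 20.7, 35.4 and 30.3 CPM in Torin1. All Torin1 libraries lay below all DMSO libraries. The TE changes were -2.20 (SE 0.26, edgeR adjusted p = 7.9e-06) and -2.30 (SE 0.18, edgeR adjusted p = 1.46e-10), in ctrl and KO cells. The ratio of Rps27l to Rps27 footprints was 1.18 and 1.75 in the ctrl DMSO libraries and 5.83 to 12.1 in ctrl Torin1, and 1.60 to 2.01 in KO DMSO against 5.02 to 11.9 in KO Torin1. The same ratio of mRNA levels stayed between 0.194 and 0.260 in all 12 RNA-seq libraries. These ratios leave out reads counted on Rps27rt, an identical copy described next that took more of the footprints than of the RNA-seq counts. Of all footprints on the members, Rps27l took 0.750% in ctrl DMSO and 2.77% in ctrl Torin1, and 0.828% and 2.82% in KO cells.

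The values of Rps27 carry a limit. The CDS of Rps27rt, a separate entry of the tables, is identical to that of Rps27 over 255 of 255 nt, and a footprint on either cannot be assigned. Of the footprints on the pair, 46.6 to 61.8% were counted on Rps27rt, against 11.5 to 13.0% of the RNA-seq counts. The level and TE of Rps27 are therefore uncertain, and so is the ratio of Rps27l to Rps27. In ctrl DMSO, 161.6 and 161.9 CPM of footprints were counted on Rps27rt, beside 166.9 and 158.7 CPM on Rps27. Adding them would lower the footprint ratio, so which paralog had more footprints in DMSO cannot be read from it. The TE of Rps27rt decreased too, by -2.02 in ctrl cells (SE 0.25, edgeR adjusted p = 1.26e-05). Rps27l shares 76.1% of its CDS positions with Rps27, with no identical run longer than 11 nt, shorter than a footprint. Pseudogenes named after a member exist in the annotation for 21 of the 29 (24 for Rps12, 14 for Rps19 and 11 for Rps2). Before counting, the authors removed reads on pseudogenes as defined by RepeatMasker. Whether that covered the pseudogenes of the members was not tested.

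**Figure D4:**
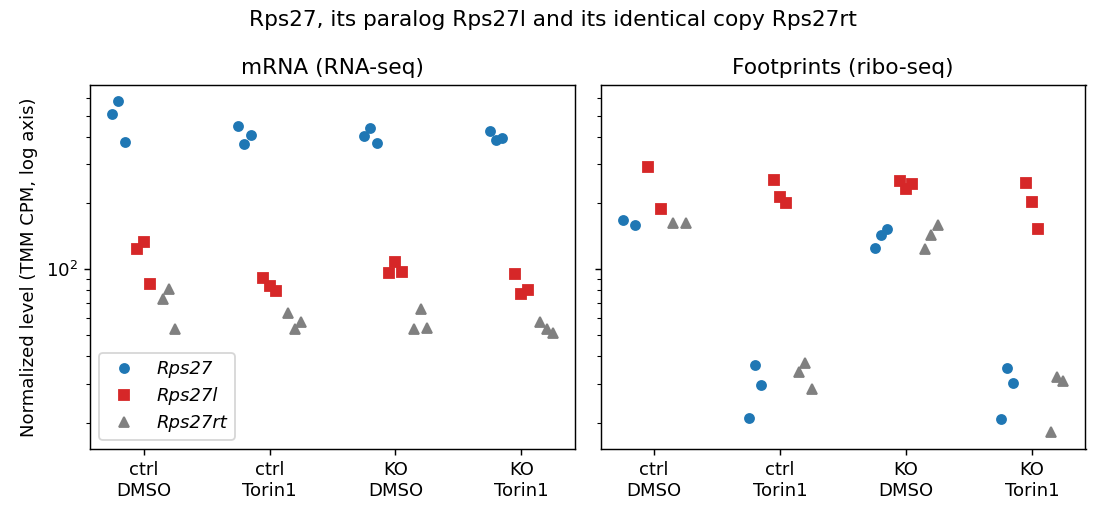
Levels (CPM after TMM scaling, log axis) of Rps27, Rps27l and Rps27rt in each RNA-seq and ribo-seq library of the 4 conditions. Footprints of Rps27 went from 125 to 167 CPM in DMSO to 20.7 to 36.5 CPM in Torin1, those of Rps27l from 188 to 292 CPM to 152 to 254 CPM.

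The level of TE before treatment also varied among the members. In ctrl DMSO the ratio of footprint CPM to mean mRNA CPM had a median of 1.00 over the members, close to the 0.929 of all transcripts. It ran from 0.332 for Rps27 to 6.51 for Rps2. The value of Rps27 leaves out the footprints counted on Rps27rt, so its place as the lowest is uncertain. The next lowest was Rps18 at 0.475. In Torin1 the median of the members was 0.289 in ctrl and 0.253 in KO cells, while that of all transcripts was 0.904 and 0.908. Rps27l then had the highest ratio of all members (2.63 in ctrl Torin1), above Rps27a and Rps28, the latter a small protein of the head (1.11 each). Across the 29 members, the TE in ctrl DMSO and in KO Torin1, which share no library, correlated with r = 0.794 (rho = 0.736), so the order of these ratios was largely kept. What counting and mapping fix per transcript, such as the division of reads between Rps27 and Rps27rt, is common to all libraries. Its part in this correlation was not tested.

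Levels of different members were compared per kilobase of CDS (RPKM after TMM scaling). In RNA-seq, Rps29 was the highest member in all 12 libraries, with a mean of 6195 ± 834 RPKM (SD, n = 3) in ctrl DMSO, and Rps2 the lowest in all but 1 library, with 324 ± 16.4 RPKM in ctrl DMSO. The highest was 15.6 to 24.0 times the lowest. The authors counted every RNA-seq read that overlapped a CDS, so reads across its ends weigh more per kilobase in a short CDS. Rps29 has the shortest CDS of the members (171 nt), so its place in RNA-seq and these ratios are uncertain. In DMSO, the SD of log2 RPKM over all members was 0.817 to 0.87 in RNA-seq and 0.713 to 0.807 in footprints. Without Rps27l it was 0.715 to 0.786 and 0.698 to 0.796, so the spread was then alike. The ratio of highest to lowest was smaller in footprints in DMSO, where Rps27a was the highest member in all 5 libraries, at 7.53 to 11.5 times the lowest, which was Rps27. The footprints of Rps27 again leave out those counted on Rps27rt, so its place and these ratios are uncertain. In Torin1 this ratio was 10.6 to 21.4, Rps29 was the highest in 5 of 6 libraries and Rps27a in the other, and the lowest was Rps27 or Rps18, a head protein that contacts the large subunit. Rps2, low in mRNA, was near the middle in footprints in ctrl DMSO, at 2112 RPKM against a median of 1825 and 2384 RPKM over the members in the 2 libraries, and fell to 276 ± 9.75 RPKM in ctrl Torin1 (SD, n = 3).

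The mixture of small subunit mRNAs under ribosomes changed with these unequal decreases. Of all footprints on the members in ctrl cells, Rps2 held a mean of 5.87% in DMSO and 3.06% in Torin1, and Rps12 2.60% and 1.58%. Rps14 went the other way, from 3.06% to 4.27%, although its own footprints decreased. Rps27a, the member with the largest share, held 9.41% and 8.82%, with libraries that overlapped. In KO cells the shares of Rps2 were 6.47% and 3.00% and those of Rps14 2.66% and 3.67%. These shares sum to the whole of the members, so that a smaller decrease than that of the others appears as a gain.

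The ranking of the members by their response was also alike in both genotypes. Across the 29 members, the TE change in ctrl and in KO cells correlated with r = 0.971 (rho = 0.961), and with r = 0.952 when Rps27l was left out. Of the 10 largest decreases in each genotype 8 were shared, and the place of 25 members differed by at most 3. The members are not independent points, since they share the libraries, the passages and the counting. The TE change had little relation across members to the length of the 5′ TL (r = 0.0192 in ctrl and 0.0786 in KO cells, n = 29) or of the CDS (r = -0.256 and -0.214). Members with a pyrimidine run of at least 6 near the RefSeq start (n = 18) had a median TE change of -1.69 in ctrl cells and those with a shorter run (n = 7: Rps3, Rps3a1, Rps4x, Rps7, Rps16, Rps28 and Rpsa) one of -1.59, with overlapping ranges. In KO cells the medians were -2.15 and -1.91, and the ranges overlapped too.

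By position in the subunit, all 12 members listed for the head and all 16 listed for the body, platform or foot decreased in TE in ctrl cells, with the same median of -1.69. Rps27l, the member that did not decrease, is in neither list. In KO cells all of both lists decreased, with medians of -1.92 for the head and -2.15 for the body, platform or foot. Of 48 large subunit protein mRNAs, 45 decreased in ctrl cells (median -1.75) and 46 in KO cells (median -2.05). The elongation factors decreased in 5 of 5 cases in both, with Eef2 at -3.61 and Eef1a1 at -3.41 in ctrl cells.

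The factors that assemble the small subunit in the nucleolus and cytoplasm were taken for comparison. Of 29 assembly factors, 0 passed the edgeR threshold in ctrl cells, with 1 higher and 0 lower at an unadjusted p under 0.05 (median 0.05), and in KO cells 5 decreased and 3 increased in TE (median -0.05), where 17.8% of all transcripts decreased. Bms1, a GTPase of early assembly, was at 0.57 (SE 0.12) and Noc4l at -0.72 (SE 0.16) in KO cells. Of 29 proteins of the small subunit of the mitochondrial ribosome, 0 passed the edgeR threshold in ctrl cells, with 5 lower at an unadjusted p under 0.05 (median -0.19), and 11 decreased in KO cells (median -0.37, again beside 17.8% of all transcripts). Among the mRNAs of the S6 kinases, LARP1 and the 4E-BPs, 1 of 5 decreased in each genotype, which was Eif4ebp1 at -0.66 in ctrl and -0.76 in KO cells. Of all transcripts, 4.29% decreased in ctrl and 17.8% in KO cells, the latter near the share of this list. The counts at an unadjusted p in this paragraph stand without such a share.

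The level of the mRNAs was then compared, since a fall of mRNA would lower footprints without a change in TE. In ctrl cells 0 of 29 members were called with Torin1 (0 by DESeq2), where 0.675% of 10958 transcripts were called lower. All 29 were lower by their estimates (49.6% of all transcripts), and 9 were so at an unadjusted p under 0.05 (10.6% of all transcripts), with a median of -0.27. The largest was Rps27l at -0.43 (SE 0.16, edgeR adjusted p = 0.141), which passed the threshold with the passage as a block (edgeR adjusted p = 0.0344). The ctrl DMSO libraries differed among themselves: Rps15 mRNA was at 868, 1218 and 879.9 CPM there and at 754, 737 and 782 CPM in ctrl Torin1. Replicate 2 stood highest. Without replicate 3 of ctrl DMSO 14 members were called lower, where 5.21% of all transcripts were, and without replicate 2 none of the 29 was called (0.728% of all transcripts) and the median was -0.14.

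In KO cells 0 of 29 mRNAs were called with Torin1 (0 by DESeq2), where 3.74% of 11004 transcripts were called lower, and 1 (Rps27l, -0.25, SE 0.09) was lower at an unadjusted p under 0.05 (12.5% of all transcripts). The median was -0.07. Rps12 mRNA was at 667, 744 and 692 CPM in KO DMSO and at 762, 675 and 724 CPM in KO Torin1, with overlap between the treatments, whereas its footprints did not overlap.

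Whether loss of eIF4E3 altered the members without the drug was tested between KO and ctrl cells in DMSO. No member passed the threshold in footprints (0 of 29, also by DESeq2, 0.0186% of 10757 transcripts called lower), with a median of -0.07. At an unadjusted p under 0.05, 4 were lower (4.09% of all transcripts) and 1 was higher: Rps9 was at -0.50 (SE 0.17), Rps23 at -0.45 (SE 0.16), Fau at -0.41 (SE 0.15), Rps18 at -0.31 (SE 0.15) and Rps24 at 0.41 (SE 0.18). In TE, 0 of 29 were called by edgeR and by DESeq2 and 0 at an unadjusted p under 0.05 (of the 10475 transcripts, 0% were called lower and 2.64% were lower at the unadjusted p), with a median of 0.13. In mRNA level, 0 of 29 were called by both tools (0.00915% of 10924 transcripts called lower), all 29 estimates were lower in KO cells (47.3% of all transcripts), 4 of them at an unadjusted p under 0.05 (3.20% of all transcripts), and the median was -0.26. With the passage as a block 8 mRNAs (Rps3, Rps7, Rps10, Rps13, Rps14, Rps15, Rps16 and Rps19) were called lower in KO cells, where 2.47% of all transcripts were. The table of this pair repeats a column name in each genotype, so the replicate numbers for that block came from the tables of Torin1 against DMSO, which hold the same libraries. These RNA-seq estimates rest on ctrl DMSO libraries whose share of counts on the members had an SD of 0.354 percentage points, against 0.180 in KO DMSO.

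Under Torin1 the footprints of 8 of 29 members were lower in KO than in ctrl cells and none was higher, where 4.01% of all transcripts were called lower. The median was -0.19. Rps15 had the smallest adjusted p, with 255, 233 and 217 CPM in ctrl Torin1 and 176, 166 and 158 CPM in KO Torin1, and a log2 difference of -0.49 (SE 0.11, edgeR adjusted p = 0.00381). Fau, at 299.5, 231 and 236 CPM against 187, 194 and 179.5 CPM, differed by -0.45 (SE 0.11, edgeR adjusted p = 0.00978). For both the KO libraries lay below all ctrl libraries. Rps21, a protein of the foot, had 274, 183 and 184 CPM in ctrl Torin1 and 122, 167 and 157 CPM in KO Torin1, and differed by -0.51 (SE 0.13, edgeR adjusted p = 0.0111). Its libraries did not overlap either, but the distance came in part from 1 high ctrl and 1 low KO library. Rps9, Rps12, Rps14, Rps19 and Rps28 differed by -0.39 to -0.45. In 12 of 29 members all KO libraries lay below all ctrl libraries and in 1 above, where 12.8% of all transcripts lay below.

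The count of these differences depended on the fit and on single libraries. The share of all transcripts called in each of these fits is not given here, so a change in count cannot be read as particular to the members. DESeq2 called 5 members (Fau, Rps9, Rps15, Rps19 and Rps21), a fit of all 4 conditions together called 2 (Fau and Rps19), and without replicate 1 of ctrl Torin1 2 remained (Rps12 and Rps15). The summed share of footprints on the members was 0.856 ± 0.0778% in ctrl and 0.759 ± 0.0377% in KO cells under Torin1 (mean ± SD, n = 3 each) (exact two-sided permutation p = 0.1, the smallest possible).

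The TE of 2 members was lower in KO than in ctrl cells under Torin1 (2.26% of all transcripts): Rps23 by -0.46 (SE 0.11, edgeR adjusted p = 0.0244) and Rps15 by -0.41 (SE 0.11, edgeR adjusted p = 0.0313). Rps23 footprints were at 164, 165 and 159 CPM in ctrl Torin1 and at 126, 128 and 131 CPM in KO Torin1, and its mRNA at 672, 604 and 626 CPM and at 738, 634 and 697 CPM. Footprints were lower in KO cells without overlap, and the mRNA libraries overlapped. The count moved between 0 and 4 when 1 library was left out, was 5 with the passage as a block (Fau, Rps12, Rps15, Rps23 and Rps28), 4 by DESeq2 and 0 in a fit of all 4 conditions. These counts too stand without the share of all transcripts called in the same fit. Rps27l was at -0.12 (SE 0.16) and Rps2 at 0.03 (SE 0.13), so not all members leaned the same way. In mRNA level under Torin1, 0 of 29 were called by edgeR or DESeq2 (0.954% of 11007 transcripts called lower), 3 were lower at an unadjusted p under 0.05 (8.58% of all transcripts), and with the passage as a block Rps2, Rps3, Rps10 and Rps14 were called lower (4.58% of all transcripts) and Rps23 higher.

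**Figure D5:**
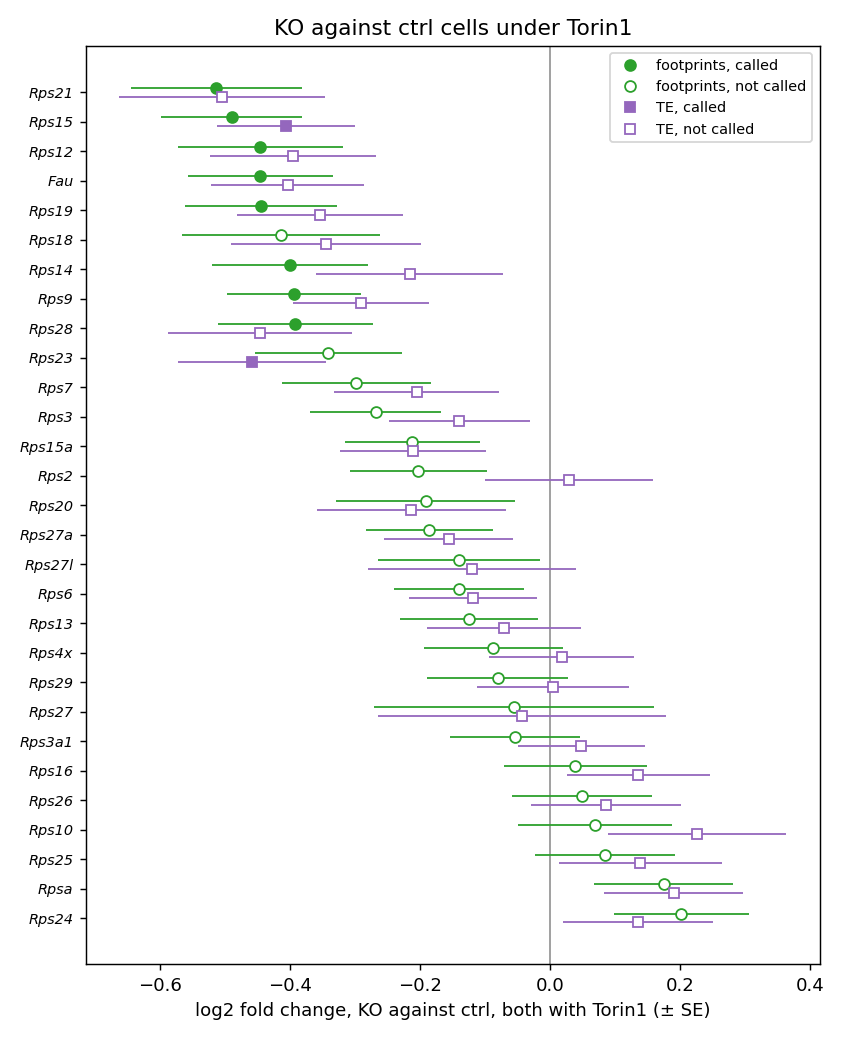
Log2 difference in footprints and in TE between KO and ctrl cells under Torin1 for the 29 members. Points are edgeR estimates with their SE, and filled points passed the adjusted threshold of 0.05. Differences in footprints ran from -0.51 (Rps21) to 0.20, around a median of -0.19.

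Whether the response to Torin1 itself differed between KO and ctrl cells was tested as the interaction of genotype with treatment. In TE, 0 of 29 members were called by edgeR, and 0 were lower at an unadjusted p under 0.05 (of 10443 transcripts, 0% were called and 3.69% were lower at the unadjusted p), the smallest adjusted p being 0.867. The estimates were all towards a larger decrease in KO cells, where 50.2% of all transcripts had that sign, with a median of -0.26, a range of -0.53 (Rps15, SE 0.29) to -0.06 (Rps9, SE 0.25) and SEs of 0.20 to 0.34. In mRNA level the interaction was above 0 for all 29 (47.8% of all transcripts, members' median 0.22), and in footprints the median was -0.08 with 22 of 29 below 0 (52.7% of all transcripts). In both, 0 members were called by either tool and 0 were at an unadjusted p under 0.05. Of all transcripts, 0% in mRNA level and 0.113% in footprints were called lower, and 0.325% and 4.63% were lower at the unadjusted p. The members share their libraries, so a common sign over the 29 counts as 1 observation, and the ctrl DMSO libraries enter both the TE and the mRNA estimates. Their part in the common sign was not tested. A difference between the genotypes in the response of any member was not detectable at this depth and number of libraries.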

How the data were processed

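RNA-seq (stranded poly(A) libraries) and ribo-seq of the 4 conditions were analysed from the counts per CDS that the authors deposited without normalization, in 1 table per assay and pair of conditions. The authors trimmed the ribo-seq reads with cutadapt, aligned reads to mm10 (HISAT2) and to the canonical Ensembl transcripts (Bowtie2), and kept primary alignments. They removed reads on rRNA, tRNA and pseudogenes as defined by RepeatMasker, and placed ribo-seq P-sites with riboWaltz. A ribo-seq count is 1 P-site in the CDS, and an RNA-seq count is 1 read that overlaps the CDS. The same tables hold the authors' own log2 fold changes, average log2 CPM, p-values and FDR from edgeR, and further tables hold their TE values. None of these was used here. The ribo-seq counts used here are those of replicates 1 and 3 of ctrl DMSO and of 3 replicates of each other condition.

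The members were matched by gene symbol. The members and the gene lists were chosen with earlier results of these data known. A transcript was tested where every library of at least 1 of both conditions had a CPM over 1. Each pair was tested with edgeR 4.0.16 (R 4.3.3) by TMM normalization and the quasi-likelihood F-test over all such transcripts, adjusted by the Benjamini-Hochberg method at 0.05. TE was tested as the assay by condition interaction, with TMM factors per assay. The genotype by Torin1 interaction used all 4 conditions. Fold changes are from these fits, and an SE is the absolute log2 fold change divided by the square root of F. The CPM of single libraries came from TMM over all 4 conditions of an assay, apart from the fits of pairs. Shares of counts were taken over the transcripts common to the 4 tables of an assay and compared by exact permutation tests (Python 3.11.15, scipy 1.17.1, pandas 2.3.3, figures with matplotlib 3.10.9). The scripts were tested on simulated data. The depth, 669010 counts in the smallest ribo-seq library, limits the precision of the low members, and p-values measure the spread between passages of the same cells.

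Values in every library are given for the 3 members with the largest and the 3 with the smallest decrease in TE in each genotype, for Rps27, Rps27l, Rps27a, Fau and Rps6, and for the members called in KO against ctrl cells, or the 3 with the smallest adjusted p where more than 6 were called. Rps18, Rps24, Rps25 and the other members are named as examples, chosen after their values were seen.

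Alternatives were DESeq2 1.42.0, no scaling beyond library size, a filter on low counts or none, the passage as a replicate block, a fit of all 4 conditions together, and each library left out in turn. Per the labels, each replicate was a different passage of the cells, and libraries of the same number were taken to share it. For KO against ctrl in DMSO the block used the RNA-seq counts of the tables of Torin1 against DMSO, since the table of that pair names 2 columns of each genotype alike. After the condition means were removed, r across transcripts between libraries of the same number was -0.0423 to 0.737 in RNA-seq (other pairs -0.589 to 0.431) and -0.0395 to 0.141 in ribo-seq (other pairs -0.141 to 0.117). Gene and transcript features came from GENCODE mouse release M21 on GRCm38, and start regions from RefSeq on GRCm38.p6. Start regions of Rps14, Rps20, Rps27a and Rps29 are not reported here. Some genes of the list of further small subunit proteins are not reported here.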

Additional observations from a re-analysis of the deposited data

How the results depend on the processing

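The decrease of footprints and of TE with Torin1 kept its direction and its side of the threshold for the 28 members other than Rps27l under nearly every alternative run: 27 to 29 members were called in each. Rps15 lost its call in TE in ctrl cells without ribo-seq ctrl DMSO replicate 1 (27 members), and Rps27l gained one in footprints in KO cells with the block and without ribo-seq KO Torin1 replicate 1 (29 members). Rps27l was not stable in sign or size: its TE change in ctrl cells ran from 0.04 (without ribo-seq ctrl DMSO replicate 3) to 0.68 (without ribo-seq ctrl DMSO replicate 1), never past the threshold, its footprint change in ctrl cells turned to 0.0501 without scaling beyond library size and ran from -0.40 to 0.24 with 1 library left out, the latter without ribo-seq ctrl DMSO replicate 1. Its TE change in KO cells turned to 0.21 without that scaling and ran from -0.21 to 0.12 with 1 library left out, above 0 without ribo-seq KO DMSO replicate 1 (0.01), ribo-seq KO Torin1 replicate 3 (0.12) or RNA-seq KO Torin1 replicate 1 (0.06). Without scaling, the median of all transcripts moved by 0.23 to 0.27 in footprints, and the members stood at medians of -1.89 in ctrl and -2.02 in KO cells relative to it.

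The small differences moved more, in counts that are not all set beside the share of all transcripts called in the same fit. With the passage as a replicate block, 1 member was called in mRNA level with Torin1 in ctrl cells, 8 between KO and ctrl in DMSO and 5 under Torin1, and 5 in TE under Torin1. The block changed no other count beyond the calls named here and beside the results. Fitting all 4 conditions together gave 1 member in mRNA level with Torin1 in ctrl cells, 2 in footprints and 0 in TE between KO and ctrl under Torin1, and DESeq2 gave 5 and 4 for the latter comparisons. Leaving out each library in turn gave 0 to 14 members in mRNA level with Torin1 in ctrl cells, 0 to 1 in mRNA level (Rps14, without RNA-seq ctrl Torin1 replicate 2), 2 to 7 in footprints and 0 to 4 in TE between KO and ctrl under Torin1. The share of RNA-seq counts on the members changed with Torin1 in KO cells by -0.129 to 0.0298 percentage points, above 0 without RNA-seq KO DMSO replicate 2, and the share of footprints between KO and ctrl in DMSO by -0.475 to 0.0133, above 0 without ribo-seq ctrl DMSO replicate 1. The cause was not tested.

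The ctrl DMSO group had 2 ribo-seq libraries, 1 of them the shallowest, which limits every comparison that rests on it.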
